A study of Amphimedon queenslandica with 144 samples.

Results

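The comparison is between 9 swimming larvae of the sponge Amphimedon queenslandica kept with Amphiroa fragilissima, an articulated coralline alga, and 9 kept with Mesophyllum sp., a coralline alga that grows as a crust. Both were induced 1.5 h after emergence from the mother and collected 2 h later, at an age of 3.5 h. They were chosen by their labels (cue, time at induction and swimming state) and make up 18 of the 144 animals of the series. They are called Amphiroa larvae and Mesophyllum larvae here, and single larvae by the replicate number of their label. Libraries carried the labels T, K and C, and the 2 groups hold the same mix, with 3 T, 5 K and 1 C larvae each. As a point of reference, 9 larvae of the same age had been in filtered seawater alone (5 T and 4 K). The remaining swimming larvae with an alga, induced at 3, 5 or 8 h and collected at 5, 7 or 10 h, number 54.

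Demosponge larvae are released from the mother, swim for some hours and then attach to a surface and metamorphose into a juvenile. Coralline algae, red algae with calcified walls, are widely used as settlement cues in studies of marine larvae, and larvae need some time after release before they respond to such cues. Each larva was kept with its piece of alga in a well of its own. Larvae that had settled by the time of collection are not in these groups, so a response to the alga and a difference in which larvae were still swimming cannot be told apart. The question here is whether larvae this young already differ between the algae before they attach.

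Transcripts were counted per larva by CEL-Seq2, which tags the 3′ end of polyadenylated RNA with an animal barcode and a random identifier. The deposited identifiers (Aqu2.1 gene models and a smaller set of other features) carry no gene names, and 0 of them matched the 25955 genes of a RefSeq table of the species. Features are therefore given by identifier, and no role is given for any of them. Levels are CPM (counts scaled to a common library total), not corrected for library, and are not compared between features. Whole larvae were measured, so fewer cells of a type and less RNA per cell cannot be told apart.

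Total counts ran from 979507 to 1915882 in Amphiroa larvae, from 541737 to 2719163 in Mesophyllum larvae and from 1444332 to 2988300 in seawater larvae. Means were 1460890 ± 326612 with Amphiroa and 1896851 ± 643075 with Mesophyllum (SD, n = 9 each; p = 0.0891, adjusted p = 0.178 over 2 measures, exact permutation test, 2-sided). Without Mesophyllum 4, the shallowest of the 18 larvae, the p of this exact permutation test was 0.00502, with Amphiroa larvae the shallower group. With each larva thinned to 541737 counts, 14793 ± 449 features were detected in Amphiroa larvae and 14832 ± 816 in Mesophyllum larvae (SD, n = 9 each; p = 0.912, exact permutation test). Unthinned, the numbers were 17885 ± 1157 and 18768 ± 2509. In a principal component analysis of the 18 larvae, Mesophyllum 4 stood apart on the second component (115, the others from -34.5 to 39.3) and Amphiroa 9 on the third (116, the others from -31.2 to 13.7). Counts that rest on these larvae are given with and without them. As a check of the label swimming, a settlement score was taken as the mean log2 CPM of features at least 2-fold higher in settled animals minus that of features at least 2-fold lower. It ran from 0.776 to 1.25 (median 0.991) in Amphiroa larvae, from 0.684 to 1.20 (median 0.793) in Mesophyllum larvae and from 0.528 to 0.901 (median 0.760) in seawater larvae. Settled groups had medians from 1.88 to 4.20, and their lowest animal was at 1.17, so the highest larva of each alga reached the lowest settled animal. Settled animals came mostly from library C. Those with Amphiroa were 6 C at 5 h and 7 C at 8 h, and those with Mesophyllum 5 C and 2 T at 5 h and 7 C at 8 h. The part of the libraries in the settlement lists was not tested.

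With a threshold of 0.05 on the adjusted p of edgeR's quasi-likelihood test, 61 of 14950 features tested differed between the algae, which is 0.408% of them. Of these, 26 were higher with Amphiroa (0.174%) and 35 were lower (0.234%). Without adjustment 1580 features (10.6%) had a p below 0.05. Differences were mostly below 2-fold among the lower features only. The median log2 fold change was 1.24 among the higher features and -0.90 among the lower ones, against -0.02 over all features, and at least 2-fold differences were found in 15 higher and 12 lower features. A count was present in all 18 larvae for 46 of the 61, and no called feature exceeded 2276 counts in any of the 18 larvae, well below the ceiling of 8192 that the identifiers set. None of the 424 other features tested was among the 61.

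The count depended on single larvae. Without Amphiroa 9 and Mesophyllum 4 together, 12 features were called (10 higher and 2 lower), 11 of them among the 61, and all 61 kept their sign. Leaving out 1 larva gave 25 without Amphiroa 9, 27 without Amphiroa 5, 28 without Mesophyllum 11, 29 without Amphiroa 8, 29 without Mesophyllum 4, 38 without Mesophyllum 7 and 115 without Amphiroa 11. A set of 8 features, all higher with Amphiroa, was called in each of the 18 fits that left out a larva, and none of the 35 lower features was. Within library K, with 5 larvae a side, 5 features were called, 3 of them among the 61, and the 45 of the 61 that could be measured there all had the same sign. Within library T, with 3 larvae a side, 1 feature was called that is not among the 61, and 41 of 43 measured had the same sign. Library C holds 1 larva of each group and gave no value. The larvae compared in these fits are among the 18 on which the 61 were chosen. Their shared signs therefore follow in part from that choice. With log2 total count as a covariate 46 features were called (25 higher and 21 lower), 45 of them among the 61. In a fit to the 18 larvae alone 25 were called, 11 of them among the 61, and all 11 were higher. Of the 35 lower features 26 could be measured in that fit, and 0 were called.

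**Figure D1:**
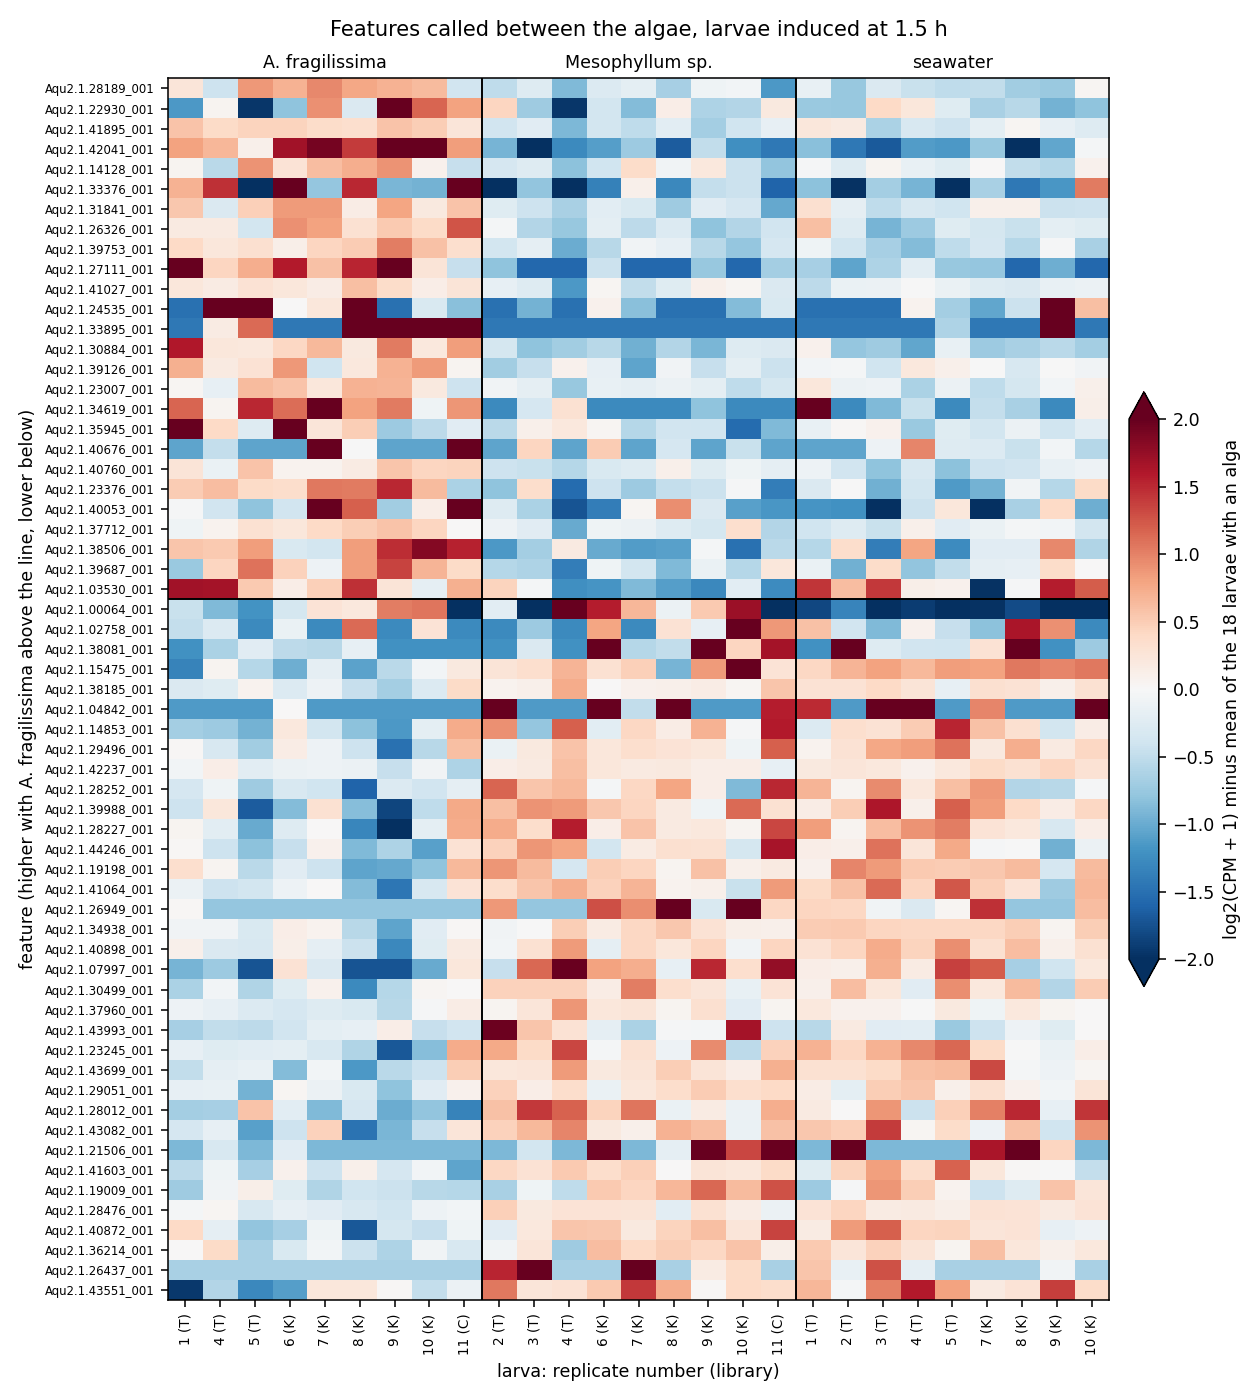
Levels of the 61 called features (rows) in the 9 Amphiroa, 9 Mesophyllum and 9 seawater larvae (columns, with replicate number and library); colour is log2(CPM + 1) minus the mean of the 18 larvae with an alga, in log2 units and clipped at 2 either way. Upper rows are the 26 features higher with Amphiroa and lower rows the 35 lower ones. In rows with single dark cells 1 or a few larvae lay far above the rest.

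The features higher with Amphiroa include a set in which every Amphiroa larva exceeded every Mesophyllum larva. Over all features tested the 2 ranges did not overlap in 11 (0.0736%), each of them higher with Amphiroa, and in 0 (0%) were they lower. Among the 26 called features that were higher there were 5 of this kind, and among the 35 lower ones 0. Aqu2.1.41895_001 had CPM of 480.8, 418, 438, 439, 416, 406, 479, 452 and 382 in Amphiroa larvae 1, 4, 5, 6, 7, 8, 9, 10 and 11. In Mesophyllum larvae 2, 3, 4, 6, 7, 8, 9, 10 and 11 it had 246, 275, 172, 249, 227, 278, 201, 243 and 286 CPM. The lowest Amphiroa larva thus lay well above the highest Mesophyllum larva, and spread was small in both groups. Its log2 fold change was 0.85 ± 0.15 (SE; adjusted p = 0.00105, edgeR), higher in 9 of 9 Amphiroa larvae than in any Mesophyllum larva. Seawater larvae ran from 208 to 377 CPM with a median of 281, below all Amphiroa larvae and overlapping the Mesophyllum larvae.

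Aqu2.1.42041_001 was detected in all Amphiroa larvae, at 6.82, 18.2 and 32.8 CPM (lowest, median and highest), and reached 0, 2.11 and 4.18 CPM in Mesophyllum larvae, 1 of which had no count. Seawater larvae had 0, 2.33 and 6.05 CPM, close to the Mesophyllum larvae. Between the algae its log2 fold change was 3.04 ± 0.59 (SE; adjusted p = 0.00336, edgeR). Aqu2.1.39753_001 had 143, 174 and 267 CPM with Amphiroa, 65.9, 102 and 125 CPM with Mesophyllum and 71.7, 91.9 and 130.0 CPM in seawater (lowest, median and highest). Here the highest value came from Amphiroa 9, and the edgeR log2 fold change of 0.88 ± 0.19 (SE), with an adjusted p of 0.0103, passed in each fit with a larva left out, the highest adjusted p being 0.0414 without Amphiroa 9. Without both larvae that stand apart it did not pass (adjusted p = 0.113, edgeR). Aqu2.1.30884_001 had 89.97, 105 and 240.4 CPM with Amphiroa, 39.8, 51.7 and 65.5 CPM with Mesophyllum and 37.6, 48.4 and 83.5 CPM in seawater. Its top value came from Amphiroa 1, without which the log2 fold change was still 1.11, with an adjusted p of 0.0564; with all larvae the log2 fold change was 1.26 ± 0.28 (SE; adjusted p = 0.0157, edgeR). The fifth, Aqu2.1.41027_001, had 93.7, 100.4 and 131 CPM with Amphiroa against 37.9, 71.8 and 91.9 CPM with Mesophyllum, an edgeR log2 fold change of 0.50 ± 0.11 (SE) with an adjusted p of 0.0127. The gap between its groups was narrow, and the lowest value belonged to Mesophyllum 4, without which 0.43 was left of the fold change (adjusted p = 0.0625, edgeR). Without both larvae that stand apart, Aqu2.1.30884_001 and Aqu2.1.41027_001 did not pass (adjusted p = 0.0836 and 0.134, edgeR). Aqu2.1.41895_001 and Aqu2.1.42041_001 passed in that fit (adjusted p = 0.0283 each, edgeR).

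**Figure D2:**
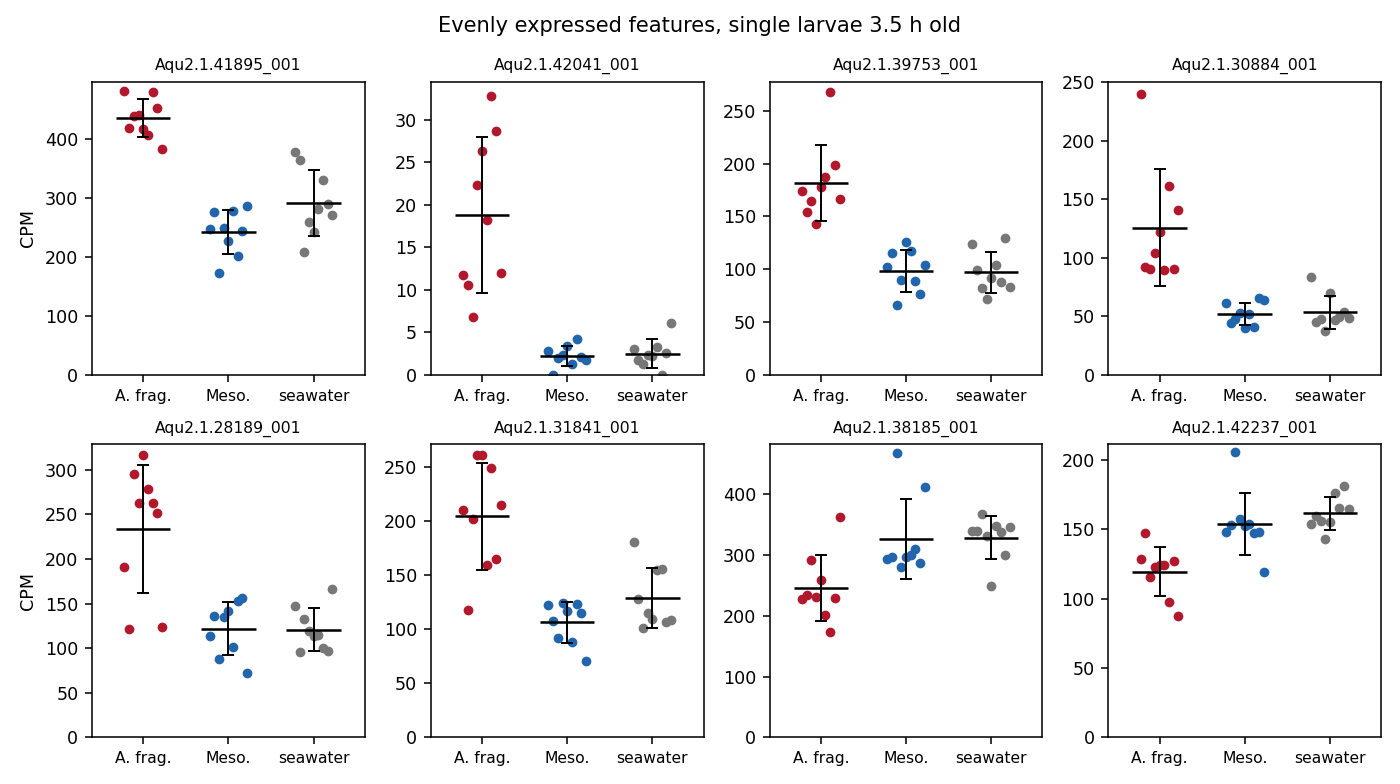
CPM per larva of 8 called features with counts in nearly all larvae, in Amphiroa, Mesophyllum and seawater larvae 3.5 h old; points are single larvae and bars are mean and SD (n = 9 each). The first 4 panels show features whose Amphiroa and Mesophyllum points do not overlap, and the last 2 show features lower with Amphiroa.

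Aqu2.1.28189_001 had the smallest adjusted p of all features. In Amphiroa larvae it was at 191, 122, 295, 263, 316, 278, 263, 252 and 124 CPM (larvae 1, 4, 5, 6, 7, 8, 9, 10 and 11), and in Mesophyllum larvae at 113, 136, 87.8, 135, 142, 102, 153, 157 and 72.2 CPM (larvae 2, 3, 4, 6, 7, 8, 9, 10 and 11). Amphiroa 4 and Amphiroa 11 lay inside the range of the Mesophyllum larvae, whereas the other 7 lay above it. The log2 fold change was 0.93 ± 0.12 (SE; adjusted p = 1.27e-07, edgeR). It passed with each larva left out (highest adjusted p = 2.90e-06 in edgeR), without both larvae that stand apart (1.22e-05) and within library K (0.0284), but within library T its log2 fold change of 0.82 had an adjusted p of 0.643. Seawater larvae had 95.7, 115 and 166 CPM (lowest, median and highest), much like the Mesophyllum larvae.

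Other evenly expressed features were called with overlapping groups. Aqu2.1.31841_001 had 118, 210 and 261 CPM with Amphiroa and 70.5, 115 and 124 CPM with Mesophyllum, so that 8 of 9 Amphiroa larvae exceeded all Mesophyllum larvae (log2 fold change 0.94 ± 0.20 SE; adjusted p = 0.0103, edgeR). Aqu2.1.26326_001 likewise had 8 of 9 Amphiroa larvae above all Mesophyllum larvae, with 44.8, 75.9 and 140 CPM against 32.7, 40.3 and 56.3 CPM (log2 fold change 0.98 ± 0.21; adjusted p = 0.0103, edgeR). Aqu2.1.14128_001 had 221, 389.7 and 601 CPM against 182, 254 and 417 CPM, and only 4 of 9 Amphiroa larvae lay above all Mesophyllum larvae (log2 fold change 0.60 ± 0.12; adjusted p = 0.00768, edgeR). The most abundant of the called features, Aqu2.1.40760_001, had 879, 1143 and 1420 CPM with Amphiroa, 645, 803 and 1027 CPM with Mesophyllum and 545, 740.3 and 894 CPM in seawater (log2 fold change 0.55 ± 0.13; adjusted p = 0.0301, edgeR). Its call was lost in 6 of the 18 fits with a larva left out. Without Amphiroa 9 and Mesophyllum 4, Aqu2.1.26326_001 still passed (adjusted p = 0.0420, edgeR). In that fit the adjusted p was 0.0534 for Aqu2.1.31841_001, 0.118 for Aqu2.1.14128_001 and 0.172 for Aqu2.1.40760_001.

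In a further group of called features 1 or a few larvae lay far above the rest of their group. Aqu2.1.22930_001 reached 185 CPM in Amphiroa 9, which held 87.4% of the summed CPM of the 9 Amphiroa larvae. The medians were 3.00 CPM with Amphiroa and 1.58 CPM with Mesophyllum, and the edgeR log2 fold change of 3.36 ± 0.61 (SE), with an adjusted p of 0.00105, was 0.69 without Amphiroa 9 (adjusted p = 0.748). Aqu2.1.33376_001 stood at 683 CPM in Amphiroa 6 and 220.2 CPM in Amphiroa 11, with medians of 8.06 CPM with Amphiroa and 1.29 CPM with Mesophyllum (log2 fold change 5.54 ± 1.16; adjusted p = 0.0103, edgeR; 3.43 and 0.144 without Amphiroa 6). Aqu2.1.24535_001 had 105, 37.97 and 33.5 CPM in Amphiroa 8, 5 and 4 and at most 2.29 CPM in the remaining Amphiroa larvae, against at most 1.98 CPM in Mesophyllum larvae (log2 fold change 5.11 ± 1.12; adjusted p = 0.0127, edgeR). Without Amphiroa 8 the fold change was still 4.01, with an adjusted p of 0.107. A seawater larva had 56.9 CPM of it. Aqu2.1.27111_001 was detected in 9 of 9 Amphiroa larvae, at 1.14, 3.89 and 41.8 CPM (lowest, median and highest), and in 4 of 9 Mesophyllum larvae, at up to 1.19 CPM (log2 fold change 4.12 ± 0.90; adjusted p = 0.0125, edgeR). In this feature 8 of 9 Amphiroa larvae exceeded every Mesophyllum larva, and without Amphiroa 9 the fold change was still 3.26, with an adjusted p of 0.101.

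Only 6 of the 61 features had a count in 9 or fewer of the 18 larvae, 2 of them higher and 4 lower with Amphiroa. Aqu2.1.33895_001 had counts in 6 of 9 Amphiroa larvae, at 69.6, 53.8, 32.1, 23.0, 4.87 and 2.00 CPM, and in 0 of 9 Mesophyllum larvae. Its 239 counts in Amphiroa larvae, against a floor of 3 counts over the Mesophyllum group, make it at least 103-fold higher (adjusted p = 0.0157, edgeR). The floor covers counting error only. Seawater larva 9 had 10.6 CPM and seawater larva 5 had 0.753 CPM of this feature, so it was not limited to larvae with Amphiroa. Without Amphiroa 9 and Mesophyllum 4 its adjusted p was 0.0676 in edgeR, and DESeq2 with all larvae gave 0.132. Its log2 fold changes at 3, 5 and 8 h were -6.85, 6.31 and 1.94 (adjusted p = 0.0592, 0.314 and 0.990, edgeR), so at 3 h the sign was opposite. In the other direction, Aqu2.1.26437_001 had 0 counts in Amphiroa larvae and 75 in Mesophyllum larvae, where 5 of 9 larvae had some, and was at least 19.3-fold lower with Amphiroa (adjusted p = 0.0483, edgeR; the call was lost in 13 of the 18 fits with a larva left out). Aqu2.1.04842_001 had 2 counts in Amphiroa larvae and 443 in Mesophyllum larvae, a ratio of Mesophyllum to Amphiroa, scaled for depth, of 171 (95% counting interval 47.2 to 1419), and 83.3% of its Mesophyllum level came from Mesophyllum 8 (adjusted p = 0.0225, edgeR, and 0.146 without that larva). Aqu2.1.21506_001 had 2 counts in Amphiroa larvae and 136 in Mesophyllum larvae, a ratio of 52.6 (14.3 to 438.7; adjusted p = 0.0436, edgeR). Mesophyllum 6 held 61.2% of the Mesophyllum sum of this feature, its adjusted p was 0.144 without that larva, and the call was lost in 11 of the 18 fits with a larva left out. Among seawater larvae 2 had 29.6 and 19.6 CPM of it.

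**Figure D3:**
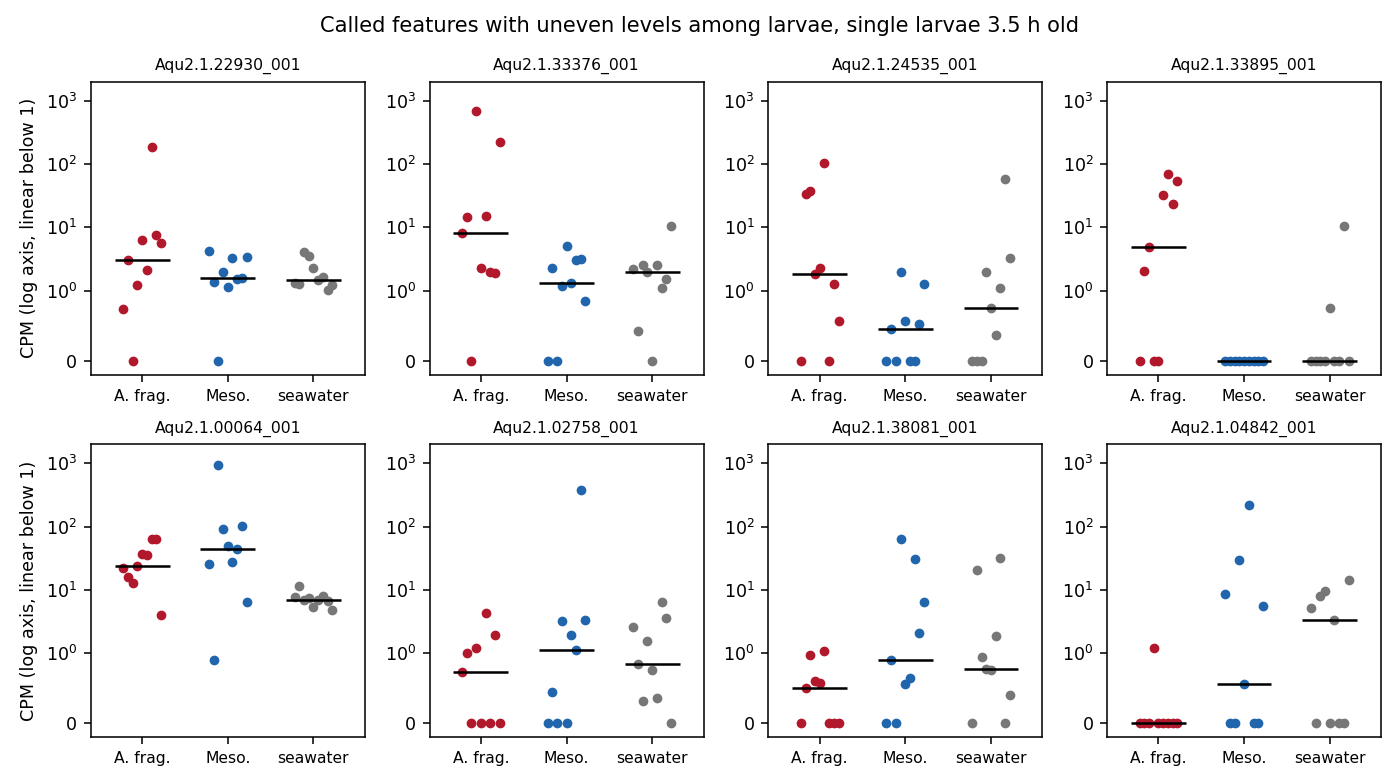
CPM per larva (log axis, linear below 1) of 8 called features with uneven levels among larvae; points are single larvae and bars are medians (n = 9 each). Upper panels are features higher with Amphiroa and lower panels are features lower with Amphiroa, and in most panels the medians lie far below the highest larva.

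The 35 features lower with Amphiroa were shifted more gently. Those detected in all 18 larvae number 28, with a median log2 fold change of -0.75, against 0.94 for the 18 such features that were higher. Aqu2.1.38185_001 had 174, 231 and 363 CPM with Amphiroa, 280.5, 297 and 467 CPM with Mesophyllum and 249, 339 and 366 CPM in seawater (lowest, median and highest). All but 2 of the Amphiroa larvae lay below every Mesophyllum larva, and the log2 fold change was -0.41 ± 0.09 (SE; adjusted p = 0.0162, edgeR). Aqu2.1.42237_001 had 87.5, 124 and 147 CPM with Amphiroa, 119, 152 and 206 CPM with Mesophyllum and 143, 159.6 and 181 CPM in seawater (log2 fold change -0.36 ± 0.09; adjusted p = 0.0245, edgeR), with 3 Amphiroa larvae below all Mesophyllum larvae. Without Amphiroa 9 and Mesophyllum 4, neither Aqu2.1.38185_001 nor Aqu2.1.42237_001 passed (adjusted p = 0.211 and 0.236, edgeR). Aqu2.1.34938_001, which had the highest mean level of the lower features, was at 137, 273 and 314 CPM with Amphiroa and 272.5, 322 and 417 CPM with Mesophyllum (log2 fold change -0.43 ± 0.10; adjusted p = 0.0317, edgeR).

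Aqu2.1.14853_001 had 113, 158 and 424 CPM with Amphiroa and 148, 338 and 758 CPM with Mesophyllum (log2 fold change -0.89 ± 0.21; adjusted p = 0.0225, edgeR). Aqu2.1.29496_001 had 26.8, 62.1 and 118 CPM against 70.4, 91.3 and 179 CPM (log2 fold change -0.58 ± 0.14; adjusted p = 0.0225, edgeR), the highest of them in Mesophyllum 11. Aqu2.1.39988_001 had 5.97, 16.6 and 41.2 CPM with Amphiroa against 22.4, 35.3 and 53.3 CPM with Mesophyllum, with 6 Amphiroa larvae below all Mesophyllum larvae (log2 fold change -0.90 ± 0.21; adjusted p = 0.0258, edgeR). Aqu2.1.28227_001 had 0.994, 12.5 and 25.2 CPM against 15.3, 19.0 and 45.9 CPM, with 7 Amphiroa larvae below (log2 fold change -0.97 ± 0.23; adjusted p = 0.0271, edgeR). Aqu2.1.28252_001 had 2.14, 6.60 and 8.01 CPM against 4.22, 13.1 and 26.3 CPM (log2 fold change -1.09 ± 0.26; adjusted p = 0.0252, edgeR). In each of these 5 features the ranges overlapped, and most Amphiroa larvae lay in the lower part of the Mesophyllum range or below it. Amphiroa 9 was the lowest Amphiroa larva in 11 of the 35 lower features and Amphiroa 11, from library C, was the highest in 14. Mesophyllum 4 was the highest Mesophyllum larva in 11, and in the 26 higher features it was the lowest in 11.

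Some lower features were uneven among Mesophyllum larvae. Aqu2.1.00064_001 reached 934 CPM in Mesophyllum 4 but had medians of 23.6 CPM with Amphiroa, 44.1 CPM with Mesophyllum and 6.99 CPM in seawater (log2 fold change -2.64 ± 0.57; adjusted p = 0.0103, edgeR; -0.33 and 0.915 without Mesophyllum 4). Its 9 seawater larvae all lay between 4.84 and 11.5 CPM, and 8 of 9 Amphiroa larvae and 7 of 9 Mesophyllum larvae lay above them. Aqu2.1.02758_001 reached 380 CPM in Mesophyllum 10, which held 97.4% of the Mesophyllum sum (log2 fold change -5.15 ± 1.10; adjusted p = 0.0103, edgeR; -0.73 and 0.887 without that larva). Aqu2.1.38081_001 had 64.7 CPM in Mesophyllum 6 and 31.1 CPM in Mesophyllum 9 against at most 1.07 CPM in Amphiroa larvae (log2 fold change -4.61 ± 0.99; adjusted p = 0.0103, edgeR; still -3.61, with 0.0637, without Mesophyllum 6), and 2 seawater larvae had 31.8 and 20.4 CPM. Aqu2.1.15475_001 had 0.733, 1.99 and 4.00 CPM with Amphiroa, 1.29, 4.51 and 19.5 CPM with Mesophyllum and 4.78, 6.62 and 8.08 CPM in seawater, so that every seawater larva lay above every Amphiroa larva (log2 fold change -1.39 ± 0.31 between the algae; adjusted p = 0.0157, edgeR; -0.93 and 0.129 without Mesophyllum 10).

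Seawater larvae of the same age were set beside both groups. The seawater median fell inside the range of the Amphiroa larvae in 34 of the 61 features, against 94.3% of all features, and inside that of the Mesophyllum larvae in 60, against 97.8% of all features. In fitted log2 level the Mesophyllum larvae were closer than the Amphiroa larvae to seawater in 54 of the 61, against 57.4% of all features. For the 26 higher features the median log2 difference from seawater was 0.97 in Amphiroa larvae and -0.23 in Mesophyllum larvae, against -0.02 and -0.00462 over all features. For the 35 lower features it was -0.77 in Amphiroa larvae and 0.06 in Mesophyllum larvae. These comparisons share larvae with the one between the algae and with each other, so the values stand side by side only. Mean total counts were 1460890 with Amphiroa, 1896851 with Mesophyllum and 2344984 in seawater, and seawater held no library C larva. The part of depth and libraries in this closeness was not tested. Over all features Amphiroa larvae differed from seawater larvae in 158 (1.06%; 52 higher and 106 lower, or 57 and 66 with DESeq2 size factors), and in 69 without Amphiroa 9 and Mesophyllum 4. With log2 total count as a covariate they differed in 118, of which 91 were among the 158. Mesophyllum larvae differed from seawater larvae in 1 feature (0.00669%) in edgeR, with 847 at an unadjusted p below 0.05 and 17 called by DESeq2. That feature is Aqu2.1.00064_001, with a log2 fold change of 4.40 ± 0.60 (SE). Without Mesophyllum 4 it was 1.94 ± 0.49 (SE; adjusted p = 0.226, edgeR), and 0 features were called.

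Single features show where each alga lay relative to seawater. Aqu2.1.28189_001 had a log2 fold change against seawater of 0.98 ± 0.12 in Amphiroa larvae (SE; adjusted p = 1.94e-08, edgeR) and 0.05 ± 0.12 in Mesophyllum larvae. For Aqu2.1.39753_001 it was 0.85 with Amphiroa (adjusted p = 0.00558, edgeR) and -0.02 with Mesophyllum, and for Aqu2.1.30884_001 1.25 (adjusted p = 0.00812, edgeR) and -0.01. Aqu2.1.41895_001 was at 0.57 with Amphiroa (adjusted p = 0.0372, edgeR). With Mesophyllum it was at -0.27 ± 0.15 (SE), which did not pass (adjusted p = 0.949, edgeR). Among the lower features Aqu2.1.34938_001 was at -0.58 with Amphiroa (adjusted p = 0.000296, edgeR) and -0.16 with Mesophyllum, and Aqu2.1.42237_001 at -0.40 (adjusted p = 0.00369, edgeR) and -0.04.

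At later induction ages other larvae were measured, in libraries that were matched at 3 h only. At 3 h each alga had 3 T, 3 K and 3 C larvae. At 5 h Amphiroa had 4 T and 5 K against 3 T and 6 C with Mesophyllum. At 8 h Amphiroa had 3 of each against 4 T and 5 C with Mesophyllum. The part of the libraries in the later values was not tested. Induced at 3, 5 and 8 h, 19, 19 and 20 of the 26 higher features had the same sign, and 29, 22 and 12 of the 35 lower features did. Together that is 48, 41 and 32 of 61, against 57.7%, 52.9% and 51.7% of all features. In the 18 higher features detected in all larvae the median log2 fold changes over the 4 ages were 0.94, 0.37, 0.25 and 0.16. In the 28 such lower features they were -0.75, -0.27, -0.05 and 0.02. Values at 1.5 h are those that chose the features, so their size at that age is a description. In the same direction, 6 of the 61 were called again at 3 h, where 0.114% of all features were called higher, 0 at 5 h, where 0% were, and 2 at 8 h, where 0.0334% were. All of these were higher with Amphiroa.

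**Figure D4:**
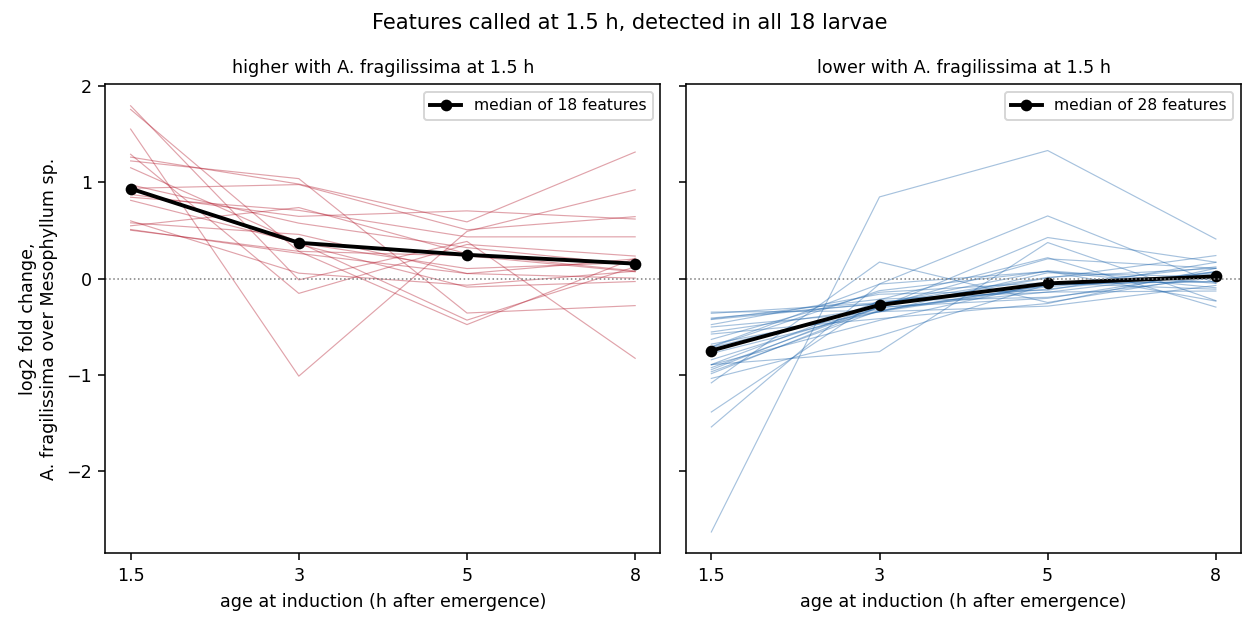
Log2 fold change of Amphiroa over Mesophyllum larvae at induction ages of 1.5, 3, 5 and 8 h for the called features detected in all 18 larvae; thin lines are features, and the black line is the median of the 18 higher (left) and 28 lower (right) features. The features were chosen on the 1.5 h values, so smaller medians at the other ages follow in part from that choice, and 4 features were called in the test between ages.

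Features that stayed higher with Amphiroa can be followed by level. Aqu2.1.41895_001 had means of 435, 419, 256 and 207 CPM in Amphiroa larvae induced at 1.5, 3, 5 and 8 h (SD 32.8, 77.7, 64.5 and 51.8), against 242, 255, 200.1 and 156 CPM in Mesophyllum larvae (SD 37.4, 41.1, 48.4 and 63.5; n = 9 each). The fold change passed at 1.5 h and 3 h (adjusted p = 0.0141, edgeR), while at 8 h it was 0.43 ± 0.16 (SE; adjusted p = 0.672). For Aqu2.1.31841_001 the means were 204, 184, 207 and 221 CPM with Amphiroa, against 106, 93.4, 139 and 139 CPM with Mesophyllum, and it passed at 3 h as well (adjusted p = 0.00543, edgeR). Aqu2.1.30884_001 had 126, 111, 94.2 and 104 CPM with Amphiroa, against 52.1, 56.1, 64.8 and 43.1 CPM with Mesophyllum, and passed at 8 h (adjusted p = 0.0290, edgeR). Taken over the 3 later ages, 25 features differed between the algae (0.167%), 19 higher and 6 lower with Amphiroa. At 1.5 h 21 of these 25 had the same sign and 7 were called, against 0.408% of all features called. The 7 are Aqu2.1.41895_001, Aqu2.1.42041_001, Aqu2.1.39753_001, Aqu2.1.31841_001, Aqu2.1.30884_001, Aqu2.1.34619_001 and Aqu2.1.40760_001, all higher with Amphiroa.

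For Aqu2.1.28189_001 the difference between the algae was larger at 1.5 h than later. Its means were 234, 129, 84.1 and 85.5 CPM in Amphiroa larvae induced at 1.5, 3, 5 and 8 h (SD 71.5, 37.5, 12.0 and 11.9), against 122, 102, 73.6 and 81.4 CPM in Mesophyllum larvae (SD 29.7, 25.2, 14.7 and 14.2; n = 9 each). Seawater larvae had 121, 95.8, 79.8 and 94.0 CPM at these ages. A test of the fold change at 1.5 h minus its mean at the 3 later ages gave 0.85 ± 0.14 (SE; adjusted p = 0.000431, edgeR), and it passed with each of the 18 larvae left out (highest adjusted p = 0.00437). Over all features 4 were called in this test (0.0268%), with 962 at an unadjusted p below 0.05. The others were Aqu2.1.00064_001 (log2 fold change -3.50 ± 0.66; adjusted p = 0.00382), Aqu2.1.22930_001 (log2 fold change 3.48 ± 0.68; adjusted p = 0.00538) and Aqu2.1.24535_001 (log2 fold change 5.76 ± 1.25; adjusted p = 0.0348), all from edgeR. The difference for Aqu2.1.00064_001 was -1.11 without Mesophyllum 4 (adjusted p = 0.823, edgeR) and that for Aqu2.1.22930_001 was 0.71 without Amphiroa 9 (adjusted p = 0.974, edgeR). Aqu2.1.24535_001 kept a difference of 4.66 without Amphiroa 8 (adjusted p = 0.291, edgeR) and failed to pass in 10 of the 18 fits with a larva left out. Without both larvae that stand apart, only Aqu2.1.28189_001 was called. For the remaining 57 features called at 1.5 h, a difference between ages was not shown.

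**Figure D5:**
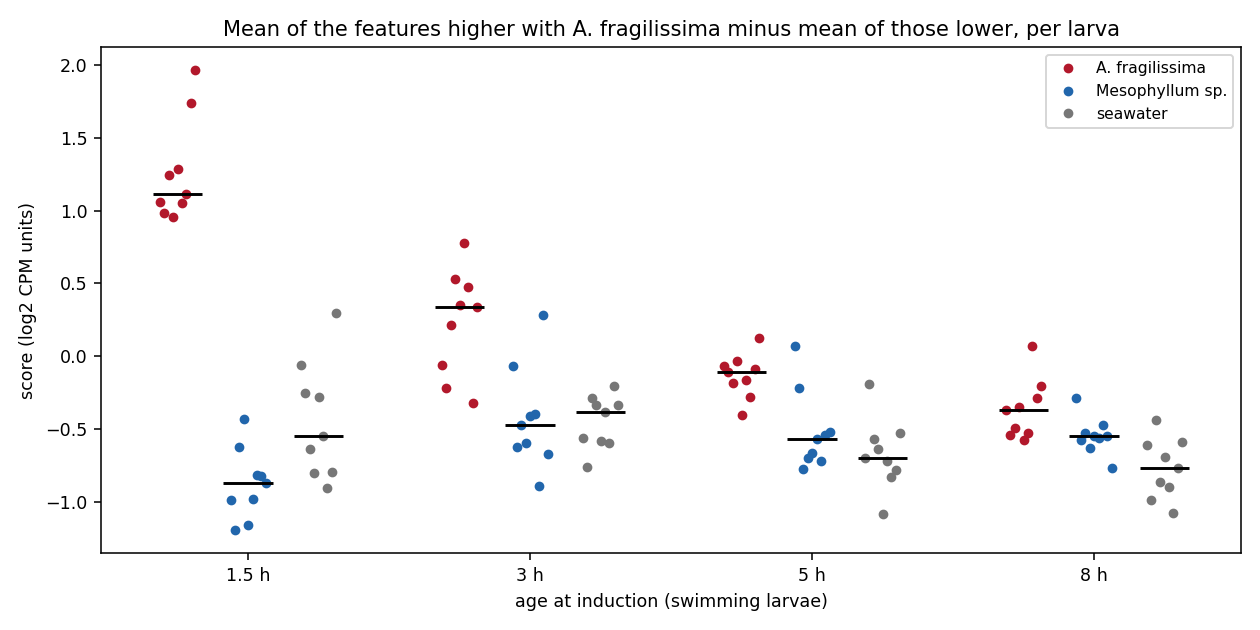
Score per swimming larva, the mean log2 CPM (library adjusted) of the 26 features higher with Amphiroa minus that of the 35 lower ones, by induction age and cue; points are larvae and bars are medians (n = 9 each). The separation at 1.5 h follows from how the features were chosen; at 8 h the Amphiroa points run from -0.575 to 0.0692 and the Mesophyllum points from -0.769 to -0.290.

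In the score of the 61 features, Amphiroa larvae had medians of 0.336, -0.112 and -0.367 after induction at 3, 5 and 8 h, and Mesophyllum larvae -0.472, -0.569 and -0.552. Seawater larvae had -0.383, -0.700 and -0.771 at these ages. The 2 algae overlapped at each of the 3 later ages. At 1.5 h, where the score is a description, its median was 1.12 in Amphiroa larvae, -0.874 in Mesophyllum larvae and -0.549 in seawater larvae.

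Lists of features drawn from other animals of the series give the direction of the wider difference. Of 1025 features at least 2-fold higher in settled animals, 5 were called higher and 1 lower with Amphiroa, with a median log2 difference between the algae of 0.11 and 60.6% above 0. Over all features the median was -0.02, 47.3% were above 0, and 0.174% were called higher and 0.234% lower. Of 536 features at least 2-fold lower in settled animals 0 were called in either direction, and their median was -0.08. Within library T the medians of the higher and lower lists were 0.07 and 0.13, within library K 0.20 and -0.08, without Amphiroa 9 and Mesophyllum 4 0.08 and -0.13, and with log2 total count as a covariate 0.08 and -0.01. The opposite direction of the 2 lists was thus not seen within library T. The 5 called members of the first list that were higher are Aqu2.1.27111_001, Aqu2.1.30884_001, Aqu2.1.34619_001, Aqu2.1.39753_001 and Aqu2.1.42041_001. Of these, Aqu2.1.30884_001 was 2.13 ± 0.17 (SE) higher on the log2 scale in settled than in swimming animals. The settled animals came mostly from library C, and the part of the libraries in these lists was not tested.

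Features that were higher in seawater larvae at 10 h than at 3.5 h number 584. The median of these 584 was -0.19, with 28.3% above 0. Among them 1 was called higher and 9 were called lower with Amphiroa, against 0.174% and 0.234% of all features. The 9 include Aqu2.1.38185_001, Aqu2.1.28227_001 and Aqu2.1.39988_001. Of the 602 features that were lower at 10 h, 3 were called higher and 2 lower, with a median of 0.14 and 76.2% above 0. Without Amphiroa 9 and Mesophyllum 4 these medians were -0.15 and 0.09, within library T -0.22 and 0.16, and within library K -0.16 and 0.14. For the 478 features higher in seawater larvae of 3.5 h than in larvae of 0.5 h the median was 0.10, with 1 called higher and 1 lower. For the 424 that were lower it was -0.14, with 5 called higher and 4 lower, beside the same 0.174% and 0.234% of all features. These medians were 0.06 and -0.03 within library T, 0.16 and -0.14 within library K, and 0.07 and -0.11 without Amphiroa 9 and Mesophyllum 4. The 0.5 h larvae had not been induced, so induction and age cannot be told apart in that pair of lists.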

How the data were processed

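The authors deposited a single table of raw counts for 144 animals, which by its name joins the lanes; demultiplexing with the public CEL-Seq pipeline and mapping to Aqu2.1 models are stated per the labels. Aligner and build: not given in the sources used here. Of 47411 features, 14950 passed the low-count filter of edgeR by group and held 99.43% of counts. The main test was the robust quasi-likelihood test of edgeR 4.0.16 (R 4.3.3, TMM factors, 2-sided), fitted once to all 144 animals with 17 group means plus library. Calls needed a Benjamini-Hochberg adjusted p below 0.05 over all features tested, and SE is the fold change on the log2 scale over the root of F. For scores, log2 CPM (prior count 2) had library effects removed by limma 3.58.1. Permutation tests ran in SciPy 1.17.1 (Python 3.11.15). Named from the called features were the 12 higher and 12 lower with the smallest adjusted p, the 4 with the highest mean CPM, those with ranges apart, the 4 largest of those with counts in 9 or fewer larvae, and the 4 leading features of the test between ages. Groups and lists were chosen with earlier results of these data known, and a few further features are named after their values were seen. Alternatives were DESeq2 1.42.0, its size factors, no filter, no library term, fewer animals, single libraries, depth as a covariate, a replicate block and each larva left out; the fit without both larvae that stand apart was chosen after seeing the data. The test was checked on simulated counts. Each sample is 1 larva, and the labels do not say which larvae shared a mother. In the main test p-values measure the spread between animals of the same group, pooled over all 144 animals. They do not rest on the spread among the compared larvae alone. Depth limits the precision of low features, and intervals cover counting error only.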

Additional observations from a re-analysis of the deposited data

Results flagged for a closer look

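Of 64 groups of 9 larvae (the 30 named features, total counts and detected features at equal depth, each in Amphiroa and in Mesophyllum larvae), 18 held a larva far from the others by Dixon's criterion at 95%. The criterion is set to flag about 5% of groups of normally spread values. The 30 features were named by their differences in the same larvae, so 18 of 64 cannot be read against that share. The highest Amphiroa larva stood apart for Aqu2.1.22930_001 (Amphiroa 9, 185 CPM), Aqu2.1.33376_001 (Amphiroa 6, 683 CPM), Aqu2.1.39753_001 (Amphiroa 9, 267 CPM), Aqu2.1.27111_001 (Amphiroa 9, 41.8 CPM) and Aqu2.1.41027_001 (Amphiroa 8, 131 CPM). The same holds for Aqu2.1.24535_001 (Amphiroa 8, 105 CPM), Aqu2.1.30884_001 (Amphiroa 1, 240.4 CPM), Aqu2.1.02758_001 (Amphiroa 8, 4.28 CPM) and Aqu2.1.04842_001 (Amphiroa 6, 1.21 CPM).

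Among Mesophyllum larvae it was Mesophyllum 4 for Aqu2.1.00064_001 (934 CPM) and Aqu2.1.42237_001 (206 CPM), and Mesophyllum 10 for Aqu2.1.02758_001 (380 CPM) and Aqu2.1.15475_001 (19.5 CPM). Mesophyllum 6 stood apart for Aqu2.1.38081_001 (64.7 CPM) and Aqu2.1.21506_001 (33.7 CPM), Mesophyllum 8 for Aqu2.1.04842_001 (221 CPM), Mesophyllum 11 for Aqu2.1.29496_001 (179 CPM) and Mesophyllum 3 for Aqu2.1.26437_001 (23.5 CPM).

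In the test between ages (edgeR), the log2 difference between the algae at 1.5 h minus its mean at 3, 5 and 8 h was 0.85 for Aqu2.1.28189_001, -3.50 for Aqu2.1.00064_001, 3.48 for Aqu2.1.22930_001 and 5.76 for Aqu2.1.24535_001. The last 3 lost their call when 1 larva was left out, with differences of -1.11, 0.71 and 4.66 left.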

How the results depend on the processing

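Between the algae 61 features were called. DESeq2 called 54 higher and 63 lower (1.2e+02 in all, 57 shared with the 61). The compared groups alone gave 25 (24 higher and 1 lower, 11 shared), no filter 17, library K alone 5, library T alone 1 and swimming larvae alone 173 (58 shared). Leaving out 1 larva gave 25 to 115, and leaving out both Amphiroa 9 and Mesophyllum 4 gave 12. Size factors of DESeq2 gave 62, no library term 42, depth as a covariate 46, no library C larvae 67, and leaving out the features with counts nearest the identifier ceiling 55. Over these settings the 30 named features kept their sign wherever they were measured, which follows in part from their choice in the same larvae. Of their values 696 stayed on the same side of the threshold and 202 lost the call. For the difference between ages (4 called), DESeq2 gave 13, the compared groups alone 1, no library term 12 and the fit without both larvae 1, and leaving out 1 larva gave 3 to 7 (7 without Mesophyllum 7). Amphiroa larvae differed from seawater larvae in 158 features, against 74 in the compared groups alone, 333 in swimming larvae alone and 69 without both larvae; leaving out 1 larva gave 59 (Amphiroa 9) to 257 (Amphiroa 11), with 94 without Amphiroa 5. For Mesophyllum larvae against seawater larvae (1 called), DESeq2 gave 17, no filter 4, swimming larvae alone 2, and depth as a covariate, the compared groups alone and the fit without both larvae each 0; leaving out 1 larva gave 0 (Mesophyllum 4) to 2 (Mesophyllum 7). The single-library, compared-groups and left-out fits hold fewer larvae; for the others the cause was not tested. The difference in total counts ran from -605350 to -333172 with 1 larva left out and passed without Mesophyllum 4 alone. That in detected features at equal depth (-39.1) ran from -264 to 71.7, with a positive sign without any 1 of 7 larvae (12.5, 46.8, 12.1, 71.7, 22.8, 57.5 and 1.42).

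Replicate numbers are shared by 7 larvae of each alga. Library-adjusted correlations between same-numbered larvae ran from -0.0184 to 0.179, with 2 of 7 best with their own number. Without adjustment they ran from 0.0289 to 0.206, and same-numbered larvae also share a library label. Numbers 4, 6, 8 and 11 were then best with their own. Whether the numbers pair the larvae is not stated by the labels, and 7 correlations cannot settle it. With the number as a replicate block 4 features were called, 1 of them among the 61, against 16 in the same 14 larvae with the library term instead, a fit chosen after seeing the data.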

Other observations

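Of the 11 features whose Amphiroa and Mesophyllum ranges did not overlap (0.0736% of 14950), 6 did not pass the adjusted p in edgeR, and all 6 were higher with Amphiroa. They were chosen after their values were seen. Aqu2.1.28330_001 ran from 149 to 380.2 CPM in Amphiroa larvae and from 28.4 to 90.6 CPM in Mesophyllum larvae (log2 fold change 2.31, adjusted p = 0.0544, edgeR). Aqu2.1.33566_001 ran from 169 to 324 CPM in Amphiroa larvae and from 60.5 to 118 CPM in Mesophyllum larvae (log2 fold change 1.40, adjusted p = 0.0514, edgeR), and it was called within library K (adjusted p = 0.0213, edgeR). The remaining 4 are Aqu2.1.39199_001 (adjusted p = 0.0615, edgeR), Aqu2.1.34239_001 (0.0702), Aqu2.1.43680_001 (0.119) and Aqu2.1.26262_001 (0.139). Without Amphiroa 9 and Mesophyllum 4, Aqu2.1.27968_001 was called in addition to 11 of the 61 features (log2 fold change 2.12, adjusted p = 0.0366, edgeR).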
